A study of Mus musculus with 4 samples.

Results

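The genes for 6 bone morphogenetic protein (BMP) ligands, Bmp2, Bmp4, Bmp5, Bmp6, Bmp7 and Bmp10, were taken by symbol from the 55405 genes in single-cell count matrices of mouse heart ventricles. All embryos carried the tamoxifen-inducible Cre transgene Cdh5(Pac)-CreER, driven by the promoter of an endothelial cadherin gene, and 1 copy of Rosa26mTmG, a reporter that switches from a red to a green membrane protein after recombination. Tamoxifen was given at E9.5 and the ventricles were collected at E12.5. The 2 libraries labelled het came from Gata4fl/+ embryos and the 2 labelled KO from Gata4fl/fl embryos, so the het libraries also carried Cre, the drug and 1 floxed allele of Gata4, a zinc-finger transcription factor gene of the heart. The labels do not say how many embryos went into a library, and p-values therefore measure only the spread between these libraries, which may be technical. They name the 3′ v2 chemistry in one place and the Next GEM kit in another.

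BMPs are secreted growth factors of the TGF-beta superfamily. They are cut from larger precursors by proprotein convertases such as furin and bind pairs of type I and type II receptor kinases, which phosphorylate Smad1, Smad5 and Smad9, while antagonists such as noggin hold the ligands outside the cell. In the embryonic heart Bmp2 from the atrioventricular myocardium is known for inducing the endocardial cushions, Bmp4 for its part in septation and cushion growth, Bmp10 for sustaining the growth of the trabeculated ventricular wall, and Bmp5, Bmp6 and Bmp7 for overlapping functions in the cushions and wall.

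On GRCm38, with GENCODE M21 gene bounds, Bmp2 lies on the plus strand of chromosome 2 from 133552159 to 133562885 and Bmp7 on its minus strand from 172868012 to 172940321. Bmp10 lies on chromosome 6 from 87428994 to 87437677 (plus strand), and Bmp5 on chromosome 9 from 75775364 to 75900310 (plus strand). Bmp6 spans 38345107 to 38500302 of chromosome 13 (plus strand), and Bmp4 spans 46383520 to 46390669 of chromosome 14 (minus strand). The RefSeq promoter table (GRCm38.p6) held 4 of the 6 genes. The upstream sequence of Bmp10 is shown because it held words that GATA factors recognise, and that of Bmp4 as a ligand promoter without them. Each is the 250 bases before the start, 5′ to 3′ on the gene's strand, at chr6:87428744-87428993 for Bmp10 and chr14:46390670-46390919 for Bmp4, with matches in capitals.
Bmp10: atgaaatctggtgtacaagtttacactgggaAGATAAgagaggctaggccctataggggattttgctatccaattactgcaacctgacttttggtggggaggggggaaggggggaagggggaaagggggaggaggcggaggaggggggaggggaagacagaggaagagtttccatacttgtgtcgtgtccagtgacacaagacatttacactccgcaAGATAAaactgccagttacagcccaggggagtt
Bmp4: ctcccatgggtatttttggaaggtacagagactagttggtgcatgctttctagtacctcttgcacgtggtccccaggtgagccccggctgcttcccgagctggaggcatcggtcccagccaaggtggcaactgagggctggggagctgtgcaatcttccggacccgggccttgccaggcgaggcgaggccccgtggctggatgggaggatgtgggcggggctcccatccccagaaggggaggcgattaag
The words searched began with A or T, went on with GATA and ended in A or G, on both strands. Bmp10 held 2 matches, both AGATAA, whose first bases lay 219 and 33 bases before the start. Bmp4, Bmp5 and Bmp6 held 0 in this window, and 26.54% of the 32851 RefSeq windows of the same length held at least 1. The Bmp6 window, from 38345466 to 38345715, lay before the RefSeq start but inside the GENCODE bounds given above. A match is a description of these letters only.

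The deposited matrices held between 137890971 and 190207638 UMIs per library, and 6785 to 22474 cells per library were kept. Library het 1 stood apart: 69.8% of its cells were left without a cell type name, and 3.45% to 6.71% of the cells in each of the other 3, and its median depth was 4165.5 UMIs per cell against 7087 to 14048. Library KO 2 held 0 UMIs of the Y-linked gene Ddx3y in erythroid cells, against 57, 214 and 318 in het 1, het 2 and KO 1, so the libraries differed in their make-up by sex, whose part in the differences below was not tested. Pairs of libraries shared 14 to 93 barcodes among the kept cells. Of 41 clusters, 21 were named from markers and made up 13 groups, called endocardial, valve endocardial and so on below; each name means that the cells were like that type by those markers. The ligand genes were left out of the genes used to cluster. Among the compact cardiomyocytes, 1 cluster held 2018 cells of which 2009 came from het 1.

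Levels are given as UMIs of a gene per 1000000 non-globin UMIs, summed over the cells of a group in a library (CPM), in the order het 1, het 2, KO 1, KO 2. Gata4 itself stood at 156, 123, 215 and 184 CPM in endothelial cells and at 118, 106, 227 and 188 CPM in endocardial cells. It was thus higher in both libraries labelled KO than in both labelled het, which goes against the labels if the deleted part is the part counted. The labels do not say which part of Gata4 is floxed, and reads near the 3′ end may lie outside it. For this reason the Gata4 count alone does not check the labels. The matrices also hold added sequences named FloxGata4 and FloxGata4_ctrl, whose counts were not compared between libraries here. The directions below are therefore those of the libraries as labelled.

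The first question was which cells of the ventricle held the transcripts of each ligand. All but Bmp6 had a leading group, though the leads of Bmp7 and Bmp4 depended on the processing. Together the ligands divided between muscle, epicardium, cushion and endothelium. Bmp10 and Bmp7 were highest in trabecular cardiomyocytes, which carry Nppa. Bmp5 and Bmp2 led in a small group of atrial or atrioventricular (AV) cardiomyocytes, Bmp4 in the epicardium, and Bmp6 in the epicardium or the endocardium according to the library.

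**Figure D1:**
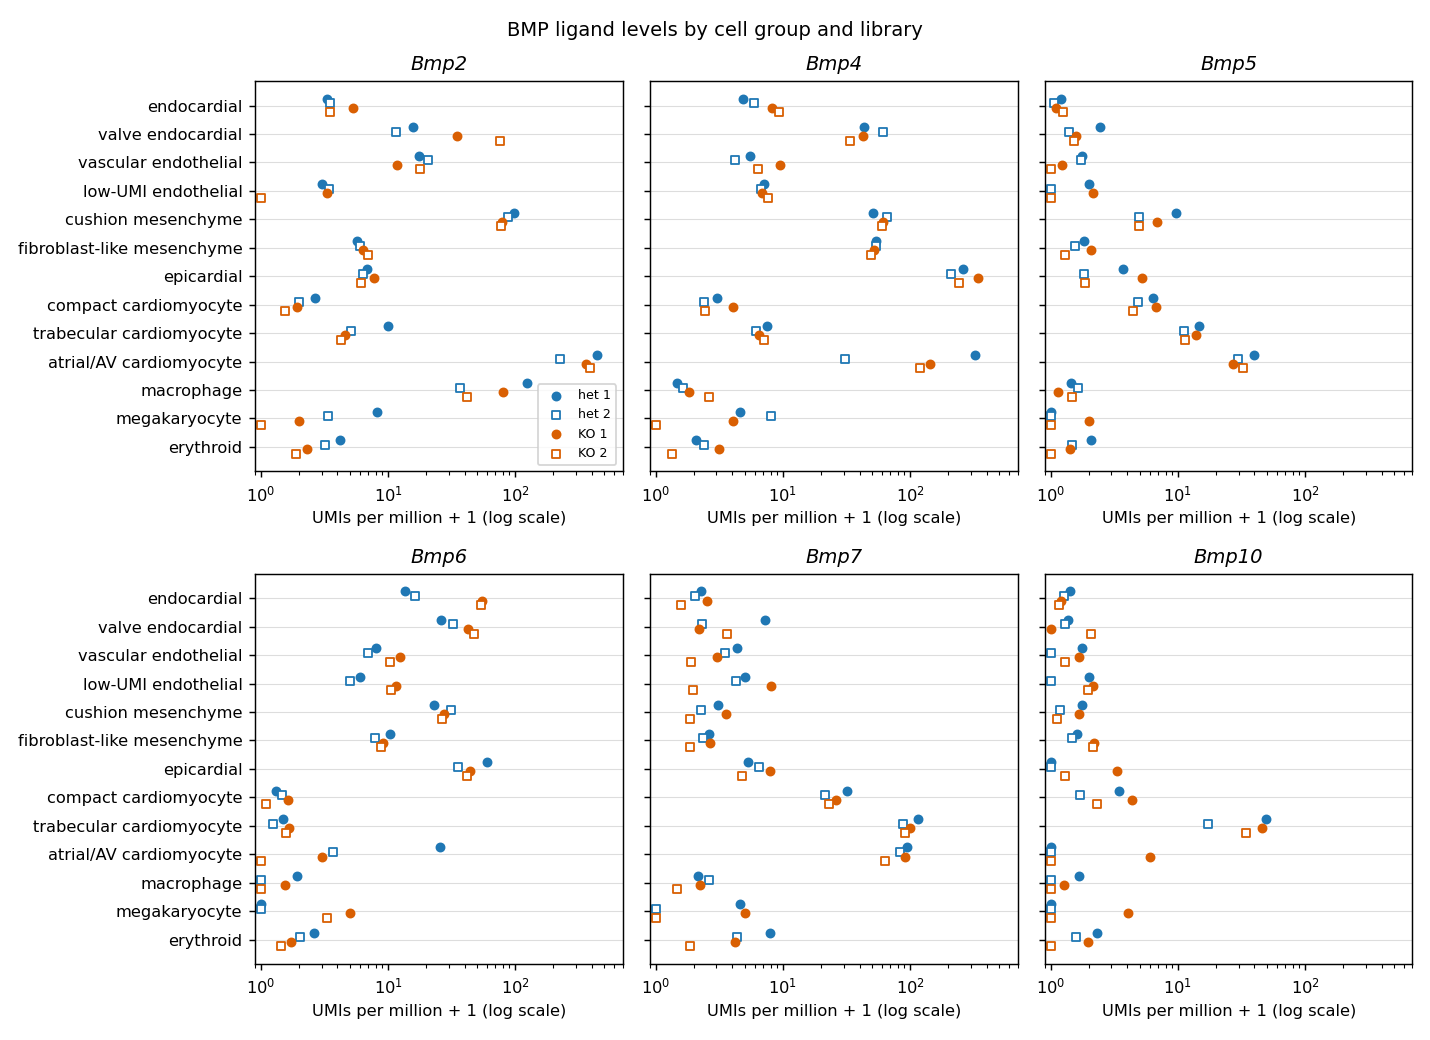
CPM plus 1 (x axis, log scale) of each ligand in 13 cell groups (y axis); each point is 1 library, blue for het and orange for KO, filled circles for replicate 1 and open squares for replicate 2. Bmp10 stands at 16.2 to 48.3 CPM in trabecular cardiomyocytes and at most at 5.04 CPM in any other group, while Bmp6 is spread over epicardial, endocardial and cushion groups.

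Bmp10, the ligand of the trabecular wall, stood at 48.3, 16.2, 45.0 and 33.1 CPM in trabecular cardiomyocytes. Its level in compact cardiomyocytes was 2.46, 0.691, 3.36 and 1.31 CPM. The trabecular level was higher in every library, and het 2 was the lowest of the 4. The difference was 3.59 on the log2 scale (SE 0.26, edgeR quasi-likelihood test over 17073 genes with library as a block, adjusted p = 1.17e-16); 66.3% of all genes passed in this contrast. With equal weight per library, 91.0% of its UMIs in named cells lay in trabecular cardiomyocytes. Erythroid cells, which should lack these ligands, held 1.33, 0.582, 0.955 and 0 CPM.

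Bmp7, a ligand of the same family branch as Bmp5 and Bmp6, stood at 114, 86.3, 98.9 and 90.5 CPM in trabecular cardiomyocytes, at 94.1, 83.0, 89.6 and 62.6 CPM in AV cardiomyocytes and at 30.6, 20.6, 25.3 and 21.9 CPM in compact cardiomyocytes. That order held in all 4 libraries. The trabecular group joined a deep cluster (2595 cells, median depth 2.56 times the library median) with a shallow one (1895 cells, 0.419 times). Pooled over libraries, the deep one held 100 CPM of Bmp7 and the shallow one 32.1 CPM. The compact clusters, at 0.303 to 1.13 times the library median, held 22.8 to 30.1 CPM. The part of depth in the trabecular lead over compact cells was not tested. The lead of trabecular over AV cells was 0.61 on the log2 scale (SE 0.20, adjusted p = 0.0209, 26.2% of genes passing) with TMM scaling but 0.24 (SE 0.20, adjusted p = 0.432, 23.3% passing) without it, so the difference passed under 1 scaling only. Compact cells lay below AV cells under both, by 0.75 (SE 0.21, adjusted p = 0.00196, 59.0% passing) and 1.76 (SE 0.21, adjusted p = 4.93e-10, 59.6% passing). In the remaining groups Bmp7 averaged at most 5.12 CPM, close to the 0.874 to 6.92 CPM of erythroid cells.

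Bmp5 was a low-count gene with 2266 UMIs in all kept cells. AV cardiomyocytes held 38.9, 28.7, 26.2 and 31.3 CPM and trabecular cardiomyocytes 13.6, 10.1, 12.9 and 10.3 CPM. The first exceeded the second by 1.03 (log2, SE 0.23, adjusted p = 6.47e-04, 26.2% of genes passing). The ranges did not overlap, and the share of all genes without overlap was not counted. Trabecular cells in turn exceeded cushion mesenchyme, at 3.97 to 8.59 CPM, by 1.52 (log2, SE 0.19, adjusted p = 1.92e-09, 64.9% of genes passing). Pooled over libraries, the deep trabecular cluster held 12.2 CPM of Bmp5 and the shallow one 2.82 CPM, against 3.84 to 5.44 CPM in the compact clusters. Cushion and compact cells could not be ordered: cushion was lower by a log2 difference of -0.78 with TMM (adjusted p = 6.63e-04, 79.4% of genes passing) and higher by 0.23 without it (adjusted p = 0.297, 81.3% passing). TMM factors were 0.548 to 0.606 in compact cardiomyocytes.

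Bmp2, the cushion-inducing ligand, reached 442, 225, 361 and 386 CPM in AV cardiomyocytes. This group was small, with 38, 89, 82 and 28 cells, and Bmp2 was among its 10 leading genes although it had not been used to cluster. Atrial and atrioventricular cells were not told apart within it. Cushion mesenchyme followed with 96.8, 86.9, 77.4 and 76.7 CPM, and AV cells exceeded it by 2.0 (log2, SE 0.30, adjusted p = 2.91e-07, 49.2% of genes passing). Macrophages held 122, 36.1, 79.1 and 40.7 CPM, a range that enclosed that of the cushion, and the difference of 0.12 between these groups did not pass (log2, SE 0.29, adjusted p = 0.739, 68.9% of genes passing). Of the Bmp2 UMIs of named cells, 49.8% lay in cushion mesenchyme, 17.5% in macrophages and 12.54% in AV cardiomyocytes. Erythroid cells held 0.874 to 3.20 CPM.

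Bmp4 was highest in the epicardium, the outer cell layer, at 259, 207, 343 and 242 CPM. AV cardiomyocytes held 321, 29.8, 143 and 118 CPM, the widest scatter of any leading group, and het 1 was the only library in which they stood above the epicardium. The epicardial lead was 1.10 (log2, SE 0.28, adjusted p = 9.00e-04, 47.0% of genes passing), but it was 0.83 with DESeq2 and 0.81 without KO 1, and neither passed. Cushion mesenchyme at 50.2 to 65.2 CPM, fibroblast-like mesenchyme at 48.7 to 53.1 CPM and valve endocardium at 32.6 to 60.2 CPM formed a middle tier whose neighbouring differences did not pass (adjusted p = 0.745 and 0.394, with 33.5% and 50% of genes passing). Valve endocardium stood far above the other endothelial groups: the endocardial group held 3.81 to 8.23 CPM and lay lower by a log2 difference of -2.80 (SE 0.30, adjusted p = 3.36e-10, 24.6% of genes passing).

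Bmp6 had no single source. The epicardium held 59.5, 34.3, 43.1 and 40.8 CPM, valve endocardium 25.2, 31.2, 41.2 and 46.6 CPM, the endocardial group 12.7, 15.4, 54.2 and 52.8 CPM, and cushion mesenchyme 22.0, 30.1, 26.5 and 25.6 CPM. Averaged over the 4 libraries, no difference between neighbours in this order passed: the adjusted p-values were 0.211, 0.856 and 0.345, in contrasts where 55.7%, 24.6% and 50.4% of genes passed. Contrasts between neighbours do not show that these groups were equal. The mean fell from 44.4 CPM in the epicardium to 26.0 CPM in cushion mesenchyme, and the contrast between those ends is not given here. The next group, vascular endothelium at 5.98 to 11.4 CPM, lay below the cushion by 1.59 (log2, SE 0.32, adjusted p = 4.31e-05, 56.2% passing). The leading group differed between libraries, the epicardium in both het libraries and the endocardial group in both KO libraries. Of its UMIs in named cells, 28.8% lay in cushion mesenchyme, 23.6% in the endocardial group, 18.8% in the epicardium and 16.8% in valve endocardium.

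The second question was how the ligands differed between the libraries labelled KO and het. UMIs were summed per library within a cell class and tested with edgeR across all genes, 2 libraries against 2. In the endothelial class, which joins 4 endothelial groups, 4 ligands were tested and 0 passed; no gene passed there (0% of 15958, with 610, or 3.82%, at an unadjusted p under 0.05, and 36 genes, or 0.226%, passing with DESeq2). The same held for the 6 ligands tested in cardiomyocytes (0% of 16302), the 6 in mesenchyme (0% of 16849), the 5 in epicardium (0% of 13895) and 1 in macrophages (0% of 11841), where 193, 164, 222 and 204 genes had an unadjusted p under 0.05; DESeq2 passed 0, 2, 1 and 3 genes. Within the endocardial group alone 6 of 14232 genes passed, 0.0422%, and Bmp6 was 1 of them. The other 3 that were higher were Dkk1, Vwf and Neil2, and the 2 lower were Ptpre and Rasgrp2; these are named because the count is small. That count was not stable: it was 109 to 131 with any 1 library left out, 193 without a low-count filter, 167 with the replicate block, 38 with DESeq2, 14 with thinned cells, 1 with doublets kept or at a finer clustering, and 0 with limma-voom.

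**Figure D2:**
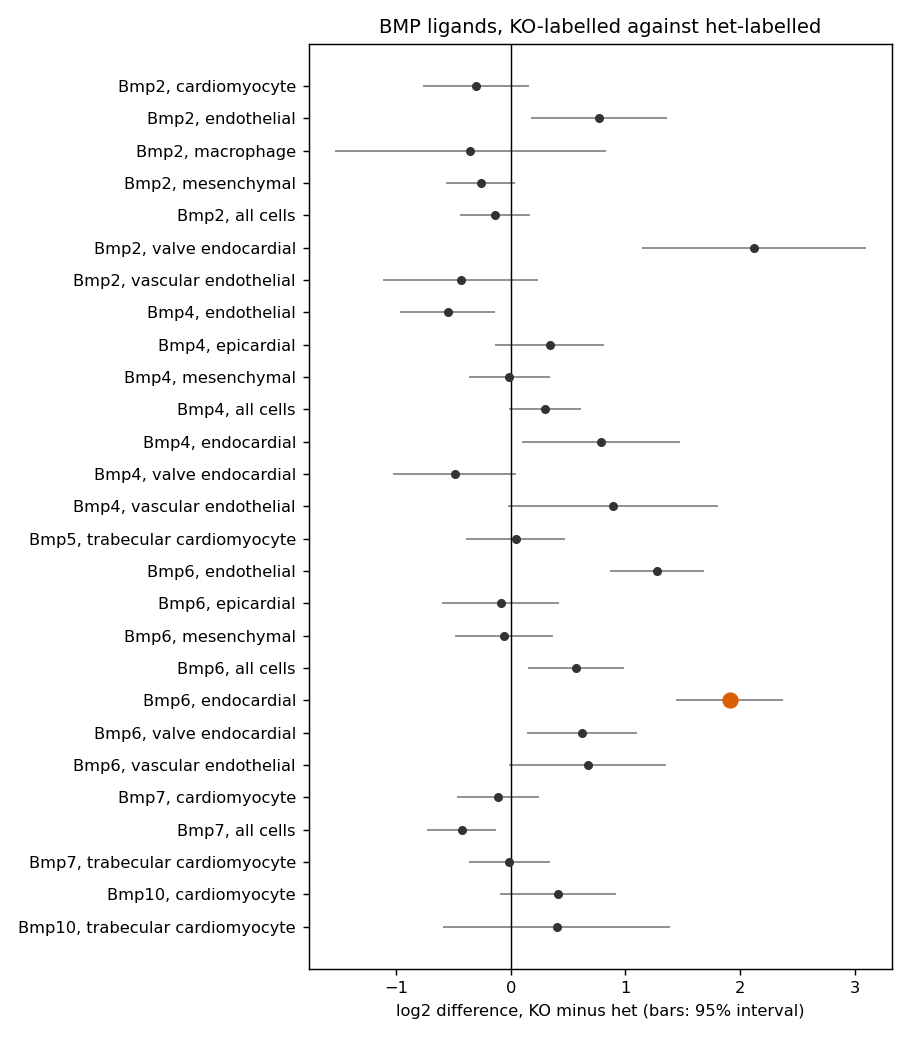
Log2 difference, KO minus het, of each ligand in the cell populations where it was high enough to be followed (y axis), with 95% intervals from edgeR. The orange point, Bmp6 in the endocardial group, is the one with an adjusted p under 0.05.

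Bmp6 rose in the endocardial group, from 12.7 and 15.4 CPM in the libraries labelled het to 54.2 and 52.8 CPM in those labelled KO. The means were 14.1 ± 1.94 and 53.5 ± 0.955 CPM (SD, n = 2), a ratio of 3.81, and the groups did not overlap. The share of all genes without such overlap was not counted, here or for the ligand differences below. With 2 libraries against 2, a lack of overlap is weak evidence. The log2 difference was 1.91 (SE 0.20, 95% interval 1.44 to 2.37, edgeR adjusted p = 0.0488). It lay close to the threshold: the adjusted p was 0.0769 with limma-voom, 0.0514 after thinning every cell to 2000 UMIs, 0.0643 with doublets kept and 0.0555 at a finer clustering, while DESeq2, which passed 0.267% of genes there, gave 3.65e-09 and the difference stayed between 1.73 and 2.17 with any 1 library left out. Markers of epicardium and cushion, which also held Bmp6, were counted as shares of the endocardial UMIs in each library. Those of valve endocardium were not counted, and the part of such cells in the Bmp6 difference was not tested. Epicardial markers took 0.00330%, 0.00418%, 0.00345% and 0.00306%, against 0.326% to 0.385% in the epicardium itself, and cushion markers took 0.0461%, 0.0372%, 0.0542% and 0.0437%.

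In 2 other endothelial groups, where 0% of genes passed, the libraries labelled KO also stood above both labelled het, by less, and without passing. Valve endocardium went from 25.2 and 31.2 to 41.2 and 46.6 CPM (log2 difference 0.62, SE 0.20, adjusted p = 1.0). At a finer clustering valve Bmp6 stood at 33.2 and 31.5 against 41.6 and 47.6 CPM. Vascular endothelium, the coronary-type cells, held 7.11 and 5.98 against 11.4 and 9.27 CPM (0.67, SE 0.30, adjusted p = 1.0). The low-UMI endothelial group held 5.03 and 4.05 against 10.5 and 9.56 CPM, on 5 to 10 UMIs per library. Over the whole endothelial class the values were 16.1, 17.8, 39.8 and 42.3 CPM (1.28, SE 0.17, adjusted p = 0.678), and Bmp6 ranked 4th of all genes by p; it passed there with DESeq2, without a filter on low counts and with any 1 library left out. Epicardium and mesenchyme gave Bmp6 differences of -0.09 (SE 0.23) and -0.06 (SE 0.18).

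**Figure D3:**
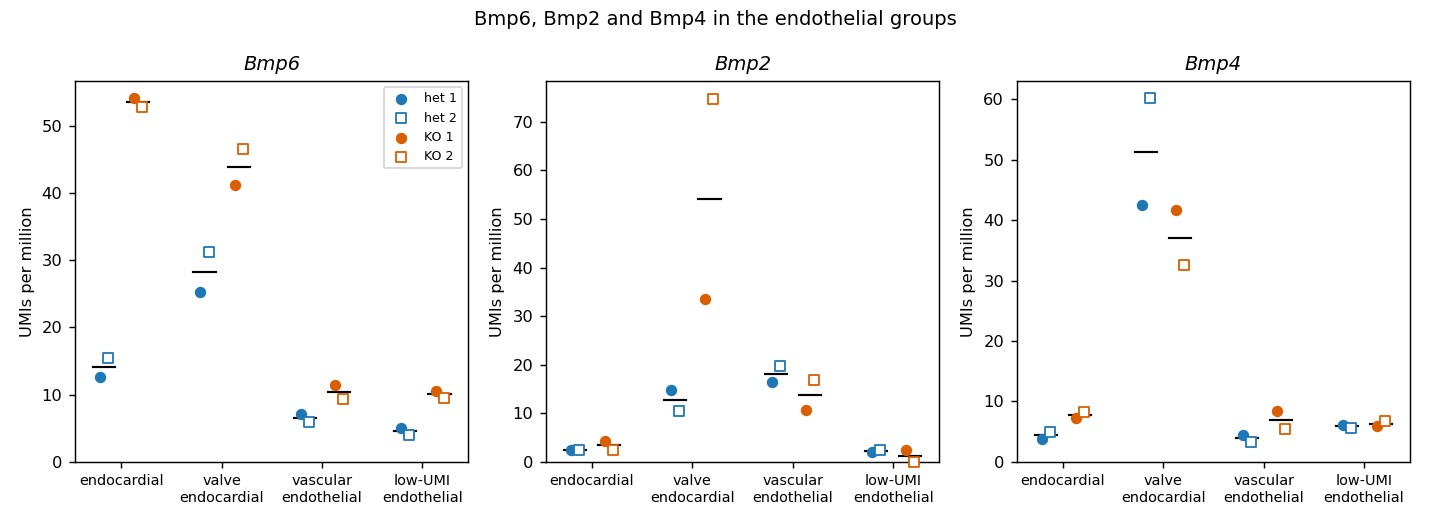
CPM (y axis) of Bmp6, Bmp2 and Bmp4 in the 4 endothelial groups (x axis); points are libraries, blue for het and orange for KO, and black bars are means of 2 libraries. The Bmp6 points of the endocardial group are 12.7 and 15.4 against 54.2 and 52.8 CPM, and Bmp2 in valve endocardium is 14.8 and 10.5 against 33.6 and 74.7 CPM.

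Bmp2 showed its widest difference in valve endocardium, the Wnt4-bearing lining of the cushions. It stood at 14.8 and 10.5 CPM in the libraries labelled het and at 33.6 and 74.7 CPM in those labelled KO, without overlap but with the KO libraries far apart. The log2 difference of 2.12 (SE 0.41, 95% interval 1.14 to 3.10) did not pass (edgeR adjusted p = 0.696); it passed with DESeq2 (adjusted p = 3.69e-04, with 0.231% of genes passing), and it was 1.36 without KO 2. Cardiomyocyte markers, from the class of the Bmp2-rich AV cells, took 0.738%, 0.148%, 0.127% and 0.146% of the valve UMIs and were highest in het 1; with cells rich in them left out the difference was 2.14. Cushion markers took 0.143%, 0.146%, 0.174% and 0.136%.

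In the other groups the Bmp2 differences were smaller and none passed. In vascular endothelium it stood at 16.5, 19.7, 10.7 and 16.8 CPM (log2 difference -0.44, SE 0.30), and in the endocardial group at 2.33, 2.50, 4.32 and 2.47 CPM (0.45, SE 0.39). In cushion mesenchyme, where both libraries labelled KO lay below both labelled het, the difference was -0.24 (SE 0.14, adjusted p = 1.0). Macrophages gave -0.35 (SE 0.50), an interval of -1.53 to 0.83. The AV cardiomyocytes had too few cells for this test, and their Bmp2 ranges overlapped.

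Bmp4 went in opposite directions among the endothelial groups, and none of these differences passed. In the endocardial group it stood at 3.81 and 4.94 against 7.24 and 8.23 CPM (log2 difference 0.79, SE 0.29, adjusted p = 0.926). Vascular endothelium, on 12 to 37 UMIs per library, was also higher, at 4.49 and 3.21 against 8.44 and 5.38 CPM. In valve endocardium, its main endothelial site, it stood at 42.5 and 60.2 against 41.6 and 32.6 CPM (-0.49, SE 0.23, adjusted p = 1.0). At a finer clustering valve Bmp4 stood at 58.0 and 62.1 against 41.8 and 33.1 CPM, without the overlap. Over the whole endothelial class it was 19.6, 21.5, 16.1 and 12.2 CPM (-0.55, SE 0.17, adjusted p = 1.0). That class also differed in its make-up, since valve cells numbered 737 and 409 in the het libraries and 261 and 115 in the KO libraries. With cells rich in cardiomyocyte markers left out they numbered 377 and 323 against 254 and 113. At the finer clustering they numbered 309 and 291 against 249 and 106. The part of this make-up in the class value was not tested. Epicardial Bmp4 differed by 0.34 (SE 0.21), and the ranges of the 2 groups overlapped.

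Bmp7, Bmp5 and Bmp10, tested in trabecular cardiomyocytes, gave differences that did not pass, where 0% of 15181 genes passed. Trabecular Bmp7 differed by -0.01 (log2, SE 0.15, 95% interval -0.37 to 0.35) and trabecular Bmp5 by 0.04 (SE 0.18, -0.39 to 0.47). Trabecular Bmp10 differed by 0.40 (SE 0.42, -0.59 to 1.39), and leaving out 1 library moved it between -0.19 and 1.24. Summed over all kept cells, where more cells of a type and more RNA per cell cannot be told apart, Bmp6 stood at 8.13, 10.7, 13.9 and 14.8 CPM (0.57, SE 0.17, adjusted p = 0.809) and Bmp7 at 29.8, 28.8, 24.5 and 20.4 CPM (-0.43, SE 0.13, adjusted p = 0.734). All 6 ligands were tested there and 0 passed, and 0% of 21607 genes passed (929 at an unadjusted p under 0.05, 195 with DESeq2).

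Whether a ligand's difference itself varied between cell types was put to an interaction test that kept the library as a block. Between the endothelial class and cardiomyocytes 0 of 6 ligands passed (0% of 17906 genes, 779 at an unadjusted p under 0.05, 2 with DESeq2); Bmp6 gave 1.26 (SE 0.52) and Bmp2 1.01 (SE 0.31), both with adjusted p = 0.982. Without a filter on low counts 0.575% of 30591 genes passed in this contrast, among them Bmp2 (1.02, SE 0.23, adjusted p = 0.0039). Bmp6 did not pass there (1.28, SE 0.36, adjusted p = 0.0603). Between the endocardial group and valve endocardium, a contrast added after the data had been seen, Bmp6 differed by 1.29 more in the endocardial group (SE 0.17, adjusted p = 0.0805). Bmp4 gave 1.31 (SE 0.25, adjusted p = 0.232) and Bmp2 -1.68 (SE 0.63, adjusted p = 0.571), and 0% of 14508 genes passed (1196 at an unadjusted p under 0.05). With cells rich in cardiomyocyte markers left out, 0.461% of genes passed, among them Bmp6 (1.38, SE 0.18, adjusted p = 0.00337) and Bmp4 (1.42, SE 0.25, adjusted p = 0.0261), while Bmp2 did not (-1.70, SE 0.56, adjusted p = 0.284).

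Detection per cell was compared after thinning each cell to 2000 UMIs, since depth differed between libraries. Endocardial cells with a Bmp6 UMI made up 2.69%, 4.01%, 9.88% and 9.54% of the 334, 598, 597 and 367 cells deep enough, a difference of 6.36 percentage points (two-sided exact permutation p = 0.33, the smallest that 2 libraries against 2 allow). Unthinned shares were 11.8%, 24.5%, 45.3% and 61.3%, at median depths of 10328, 19009, 14099 and 26986 UMIs. Erythroid cells gave 0%, 0.212%, 0.231% and 0.121% with a Bmp6 UMI after thinning, where 0 of 643 cells allows a share of up to 0.467%; their median depths were 3438 to 5284 UMIs. The Bmp6 shares of endocardial cells thus lay above the erythroid ones in all 4 libraries.

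Bmp2 was found in 1.83%, 1.68%, 4.12% and 4.59% of thinned valve endocardial cells, a difference of 2.60 points (exact permutation p = 0.33). In cushion mesenchyme its shares were nearly level, at 14.9%, 14.9%, 14.5% and 13.8%. Macrophages with a Bmp2 UMI made up 19.2%, 6.73%, 12.9% and 7.45%, against 0.242% to 0.622% of erythroid cells, and het 1 and KO 1 lay above het 2 and KO 2. Bmp4 was found in 34.6%, 27.2%, 49.2% and 32.4% of epicardial cells, Bmp7 in 18.1%, 14.6%, 14.5% and 13.2% of trabecular cells, and Bmp10 in 7.51%, 2.74%, 6.84% and 4.30% of trabecular cells.

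**Figure D4:**
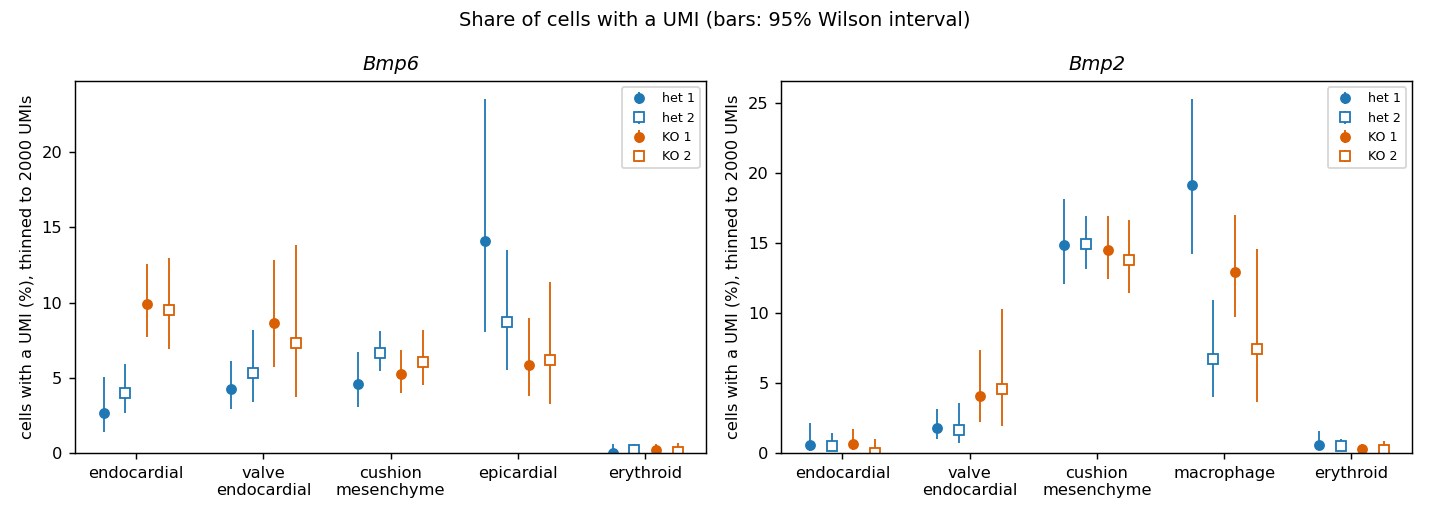
Share of cells with a UMI of Bmp6 (left) and Bmp2 (right) in percent (y axis) after thinning to 2000 UMIs, by cell group (x axis) and library, with 95% Wilson intervals that cover counting error only. Bmp6 lies at 2.69% and 4.01% in endocardial cells of the het libraries and at 9.88% and 9.54% in those of the KO libraries, and erythroid cells lie near 0.

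Several ligands were found together in single cells at full depth; deeper cells show more of every gene, so these counts are descriptions. Of 3551 cushion cells, 1612 held a Bmp2 UMI, 1465 a Bmp4 UMI and 813 both. Of 4490 trabecular cells, 2500 held Bmp7, 747 held Bmp5 and 657 held both, while 484 held Bmp7 and Bmp10 together. In valve endocardium 305 of 1522 cells held Bmp4, 354 held Bmp6 and 157 held both. In the epicardium 690 of 745 cells held Bmp4, 430 held Bmp6 and 415 held both. If the ligands were independent, 398 epicardial cells would hold both, close to the count found. The same reckoning gave 665 for the cushion pair and 70.9 for the valve pair. For trabecular cells it gave 416 with Bmp7 and Bmp5 and 355 with Bmp7 and Bmp10.

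The rest of the pathway was read from 6 lists of receptors, Smads, modulators, convertases, other ligands and target genes. In the endothelial class none of the tested members of any list passed. Of all genes, 3.82% had an unadjusted p under 0.05 there. The class values are sums over endothelial groups whose proportions differed between libraries, as given for Bmp4 above. The part of this make-up in the pathway values was not tested. Among 10 tested receptors and co-receptors, 3 had an unadjusted p under 0.05 and were higher in the libraries labelled KO, with a list median of 0.18 against 0.00 over all genes. Acvrl1, an endothelial type I receptor, stood at 12.7, 13.0, 31.6 and 37.4 CPM (log2 difference 1.43, SE 0.18, adjusted p = 0.678). Tgfbr3, a co-receptor also called betaglycan, gave 0.69 (SE 0.14, adjusted p = 0.824), and the co-receptor Eng 0.49 (SE 0.20, adjusted p = 1.0). These 3 showed no overlap between the groups, which their choice by low p favours, and the share of all genes without overlap was not counted.

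Of 6 Smads 3 had an unadjusted p under 0.05 and were higher: the inhibitory Smad7 at 183, 173, 287 and 250 CPM (0.60, SE 0.14), the inhibitory Smad6 at 106, 65.9, 160 and 133 CPM (0.79, SE 0.21) and the receptor-activated Smad9 at 2.07 to 5.28 CPM (0.995, SE 0.29). The list median was 0.33. Of 16 tested targets 3 did so, with a median of 0.23: Smad6, Smad7 and Hey1, a repressor downstream of BMP and Notch signals, at 11.8, 13.0, 27.3 and 28.4 CPM (1.16, SE 0.17, adjusted p = 0.721). Among 12 modulators 1 did so, the antagonist Fst, which was lower at 24.4, 23.3, 18.7 and 16.9 CPM (-0.42, SE 0.14), and the median was 0.02; Smoc1 gave 0.36 and Gpc3 -0.49. The 4 convertases, with Furin at 0.32, Pcsk7 at 0.20 and Pcsk5 at 0.19, and the 5 other ligands, with Inhbb at -0.28, Gdf2 at -0.62 and Gdf10 at -0.24, held no member under that p. Endocardial cells alone gave Acvrl1 at 14.6, 13.3, 39.0 and 40.1 CPM (1.52, SE 0.18, adjusted p = 0.0675), still short of the threshold that Bmp6 passed.

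**Figure D5:**
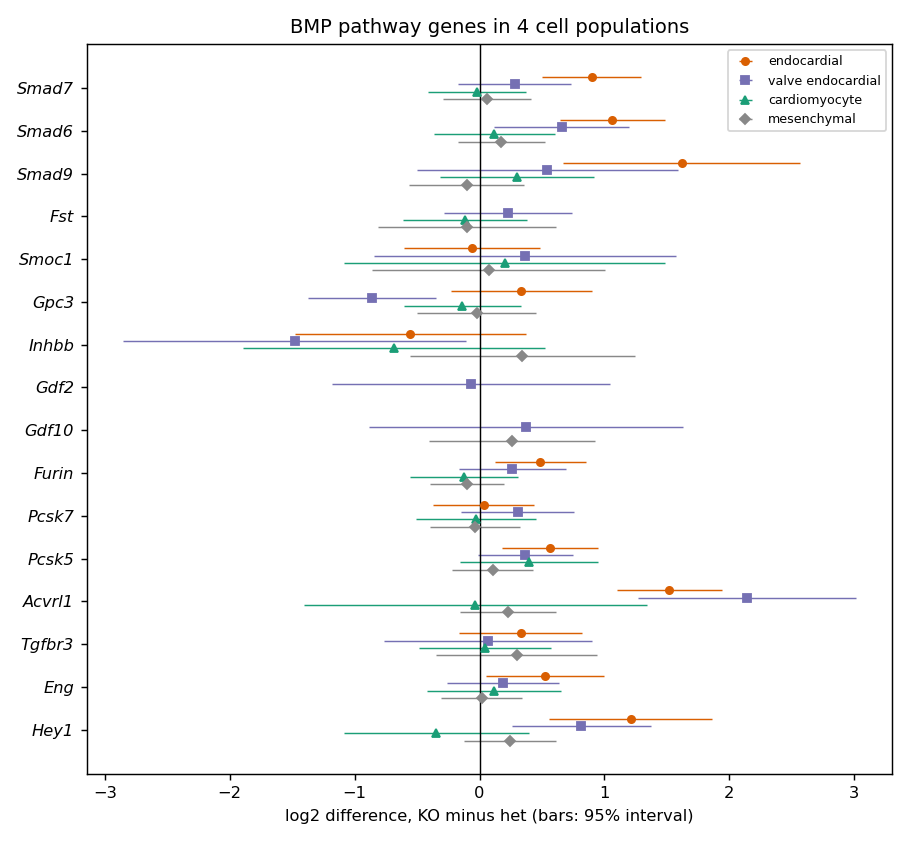
Log2 difference, KO minus het, with 95% intervals (x axis) of the BMP pathway genes named for the endothelial class (y axis) in the endocardial group, valve endocardium, cardiomyocytes and mesenchyme. Acvrl1 lies at 1.52 in the endocardial group and at 0.23 in mesenchyme, and none of the points passed the adjusted threshold.

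In cardiomyocytes and mesenchyme the same lists held 0 members that passed. Cardiomyocyte medians lay between -0.15 and -0.05 for 5 lists, against -0.01 over all genes, and at -0.65 for 2 tested other ligands, Inhba (-0.61, SE 0.29) and Inhbb (-0.68, SE 0.57). The modulators Fstl3 (-0.76, SE 0.30) and Chrdl1 (-1.01, SE 0.46) had an unadjusted p under 0.05 there, as did 1.18% of all genes; Bmper gave -0.60. The remaining lists were led by Smad5, Smad1 and Smad9, by Pcsk6, Pcsk5 and Furin, by Bmpr2, Bmpr1a and Acvr2b, and by the targets Sox9, Id4 and Msx2, at -0.49 to 0.45. In mesenchyme the antagonist Grem1, at 0.780, 0.688, 0.0455 and 0.132 CPM, gave -2.87 (SE 0.68) on 9, 24, 1 and 4 UMIs, and the target Msx2 gave -0.74 (SE 0.29); both had an unadjusted p under 0.05, as did 0.973% of all genes. There Chrdl1 gave 1.14, Bmp3 -0.68 and Smoc2 -0.25, and the other genes of lowest p (Smad6, Smad9, Smad5, Gdf10, Inhbb, Pcsk6, Furin, Pcsk5, Acvrl1, Rgmb, Acvr2b, Hey1 and Id2) lay between -0.28 and 0.34.

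For each ligand the 3 genes whose levels followed it most closely over the 13 groups and 4 libraries were listed, from 9596 candidates and 52 points that share libraries and depth. Bmp10 went with the natriuretic peptide genes Nppb (Pearson r = 0.82) and Nppa (0.79) and with Gtsf1 (0.75). Bmp7 went with Casz1, Perp and Synpo2l (each 0.97), and Bmp5 with the calcium channel subunit gene Cacnb2 (0.94), Dusp27 (0.93) and Lrrc4b (0.93). Bmp2 had the loosest neighbours together with Bmp10, Gfra2 and Plekhm2 (each 0.78) and Tmx4 (0.75). Bmp4 followed Slc1a3 (0.91), Aebp1 (0.91) and Clip3 (0.90), and Bmp6 followed Hs3st1 (0.92), P3h3 (0.91) and Cdh11 (0.90).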

How the data were processed

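Single-cell UMI counts of 4 libraries were read as deposited; the authors' matrices hold raw counts made with Cell Ranger 6.0.1, per the file headers, on mm10, per the submitters' processing notes. The 6 ligands and the gene lists were chosen with earlier results of these data known, so the Bmp6 difference is no independent finding. Barcodes with under 500 genes or at least 20% mitochondrial UMIs were left out, as were Scrublet doublets (scanpy 1.11.5; 412, 242, 608 and 93 in het 1, het 2, KO 1 and KO 2). The automatic threshold failed in het 1 and KO 2, and 0.323, the median of the others, was used. Clusters came from 2000 variable genes, 30 components and Leiden resolution 1 (igraph 0.11.9); cut-offs for cardiomyocyte marker shares were chosen with the clusters in view. Sums per library and group with at least 50 cells passed filterByExpr (minimum count 10, total 15), TMM and the quasi-likelihood test of edgeR 4.0.16 (R 4.3.3), with Benjamini-Hochberg adjustment at 0.05. DESeq2 1.42.0 and limma 3.58.1 were alternatives. The tests were tried on simulated data. CPM is printed without TMM; fold changes carry it. Finer groups within a class were tested as added comparisons, except the endocardial and vascular ones, which stood from the start as alternatives to the endothelial class. Genes named were the 6 ligands, up to 3 members of lowest p per list in endothelial, cardiomyocyte and mesenchymal cells, the 3 genes most like each ligand, and markers. No column was left unused.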

Additional observations from a re-analysis of the deposited data

How the results depend on the processing

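Of 336 alternative values over 27 ligand differences, 300 kept their direction and side of the threshold, 18 newly passed, 4 no longer passed (Bmp6 in the endocardial group, given above) and 14 turned direction. Those that turned were Bmp4 in mesenchyme with thinned cells (0.13), trabecular Bmp5 without TMM (-0.0157), trabecular Bmp7 with doublets kept (0.0065) or a finer clustering (0.0544), and 10 values with 1 library left out: Bmp6 ranged from -0.41 to 0.23 in epicardium and from -0.26 to 0.21 in mesenchyme, Bmp2 from -0.97 to 0.70 in macrophages, Bmp4 from -0.16 to 0.16 in mesenchyme, and trabecular Bmp5 from -0.11 to 0.17, Bmp7 from -0.14 to 0.11 and Bmp10 from -0.19 to 1.24. The cause was not tested. None of these passed the test.

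Counts of genes passing, 0 with edgeR in every class, moved most. DESeq2 gave 36 in endothelium, 1 in epicardium, 353 in erythroid cells, 3 in macrophages, 2 in mesenchyme and 195 over all cells. Without a low-count filter the counts were 31 in cardiomyocytes, 262, 17, 688, 85 and 30 in those classes, and 354 over all cells. Thinning gave 1 in endothelium and 348 in erythroid cells, leaving out TMM gave 37 over all cells, and endocardial cells alone gave 6. With 1 library left out, where the lone sample is assumed to vary like the other group, counts ranged over 6 to 39 in cardiomyocytes, 57 to 219 in endothelium, 13 to 88 in epicardium, 2 to 3185 in erythroid cells, 5 to 97 in macrophages, 5 to 49 in mesenchyme and 9 to 47 over all cells. The interaction with cardiomyocytes gave 176 without a filter and 2 with DESeq2, and that with valve endocardium 66 with cells rich in cardiomyocyte markers left out. The cause was not tested.

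Same-numbered libraries deviated together (r of 0.315 to 0.579 over groups), but there were only 2 pairs and the labels do not say what a number marks, so the numbers were not taken to pair libraries. With the replicate block the counts were 23 in cardiomyocytes, 22 in epicardium, 2631 in erythroid cells, 11 in macrophages and 30 in mesenchyme. In endothelium 680 of 15958 genes passed, among them Bmp6 (1.28), Bmp2 (0.77) and Bmp4 (-0.55). Over all cells 830 of 21607 genes passed, among them Bmp6 (0.58) and Bmp7 (-0.43). With 4 libraries this fit leaves few residual degrees of freedom.

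Between groups, the Bmp4 lead of epicardium was 0.83 with DESeq2 and 0.72 to 1.77 with 1 library left out, and the Bmp7 lead of trabecular cells was 0.24 without TMM, 0.45 with DESeq2 and 0.47 to 0.72 with 1 left out. Differences in shares moved with depth: thinned to 4000 UMIs and unthinned they were 13.2 and 35.2 points for endocardial Bmp6, 4.5 and 10.2 for valve Bmp2, -6.07 and -17.0 for trabecular Bmp7, -0.723 and 0.465 for AV Bmp5, -0.175 and 5.78 for epicardial Bmp6, and 12.9 at 4000 for AV Bmp2. Few cells limit what can be read from the AV group (28 to 89 cells per library), and few UMIs limit Bmp5 and Bmp10 outside muscle.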
